A study of Mus musculus with 10 samples.

Results

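The 50 genes described here encode proteins of DNA replication and S phase. They were listed by symbol from what they are known to do, although earlier results of these data were known when the list was drawn up, and all 50 were present among the 20325 genes of the deposited table. PolyA RNA was measured in 10 libraries from 5 mESC lines, with 2 biological replicates of each line. Daxx-/- mESCs are of strain 129/SvEv and lack the H3.3 chaperone DAXX, and Daxx-/-;WT mESCs are the same cells with a transgene of FLAG-tagged murine DAXX. H3.3 KO mESCs are of mixed 129 x C57BL/6J origin, and both of their derivatives carry FLAG-HA-tagged H3.3, unaltered in H3.3 KO;WT mESCs and with the changes named in the label in H3.3 KO;L126A-L130A mESCs. The mutant was designed to bind DAXX without being stably deposited in nucleosomes. The transgenes were carried by lentivirus, driven by an EF1 promoter and selected with puromycin, all lines were grown without feeder cells in 2i and LIF, and no unmodified mESC line entered the comparisons. The first pair are called the Daxx lines below, the other 3 the H3.3 lines, and the transgenic lines the DAXX-rescued, WT-rescued and mutant-rescued lines.

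A chromosome is copied once per cell cycle in a fixed order of steps. In G1 the origin recognition complex, Cdc6 and Cdt1 load the ring-shaped MCM2-7 helicase onto DNA, and in S phase Cdc45 and the GINS complex turn it into a moving helicase that primase, the replicative polymerases, the PCNA clamp and single-strand binding proteins follow. CAF-1 places new histones behind the fork, cyclin E and the E2F transcription factors govern entry into S phase, and mESCs are known for a short G1 and a large share of cells in S phase.

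E2F factors bind short elements in the promoters of many replication genes, so the promoters of members were searched for the 4 elements TTTCCCGC, TTTCGCGC, TTTGCCGC and TTTGGCGC on both strands. RefSeq promoter windows of GRCm38.p6, from 250 bases before to 50 bases after a start site, were matched by symbol for 41 of the 50 members. An element was found in 14 of these 41 (34.1%) and in 2.60% of the 27025 genes with a window. The 14 were Orc1, Orc3, Cdc6, Cdt1, Mcm3, Mcm5, Mcm6, Mcm7, Gins3, Pola1, Pold1, Pole2, Rfc3 and Lig1. A CCAAT box (CCAAT) was found in 63.4% of the members and 41.06% of all genes, and a TATA box (TATAAA) in 7.3% and 15.67%. A match is a description of the letters and not evidence of a bound site. The sequences below belong to members called between the Daxx and H3.3 lines at an adjusted p under 0.05, with the E2F elements in capitals. Mcm2 (GRCm38 chr6:88898781-88899030, minus strand) held no element in its window and stands here for comparison, and the other upstream stretches, also the 250 bases before the start site, are of Mcm5 (GRCm38 chr8:75109259-75109508, plus strand), Mcm6 (GRCm38 chr1:128359706-128359955, minus strand) and Orc3 (GRCm38 chr4:34614943-34615192, minus strand).
Mcm2: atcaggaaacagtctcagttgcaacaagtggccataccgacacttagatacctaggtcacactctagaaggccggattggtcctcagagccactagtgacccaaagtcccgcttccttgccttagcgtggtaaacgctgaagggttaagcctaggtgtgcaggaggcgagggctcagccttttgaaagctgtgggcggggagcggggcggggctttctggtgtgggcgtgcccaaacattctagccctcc
Mcm5: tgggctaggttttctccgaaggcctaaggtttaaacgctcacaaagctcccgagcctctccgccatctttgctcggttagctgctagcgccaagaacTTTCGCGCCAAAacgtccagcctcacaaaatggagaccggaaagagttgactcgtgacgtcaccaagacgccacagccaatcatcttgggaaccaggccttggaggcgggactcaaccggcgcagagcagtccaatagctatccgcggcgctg
Mcm6: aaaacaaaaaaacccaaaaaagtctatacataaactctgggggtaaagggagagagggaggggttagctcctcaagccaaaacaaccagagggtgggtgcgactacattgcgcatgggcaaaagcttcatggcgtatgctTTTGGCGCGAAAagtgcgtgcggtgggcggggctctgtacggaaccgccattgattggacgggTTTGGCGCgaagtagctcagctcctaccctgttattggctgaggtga
Orc3: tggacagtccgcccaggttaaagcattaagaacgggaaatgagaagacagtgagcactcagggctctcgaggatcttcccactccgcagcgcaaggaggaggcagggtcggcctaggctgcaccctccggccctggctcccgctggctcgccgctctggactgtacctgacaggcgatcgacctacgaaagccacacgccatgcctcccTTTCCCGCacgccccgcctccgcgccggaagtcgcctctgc
In Mcm5 and at the upstream site of Mcm6 a pair of elements on opposite strands overlap. In Cdt1 (GRCm38 chr8:122568036-122568064, plus strand), Mcm3 (GRCm38 chr1:20820266-20820294, minus strand) and Pold1 (GRCm38 chr7:44548766-44548787, minus strand) the elements lie just after the start site, and only the stretch around them is shown.
Cdt1: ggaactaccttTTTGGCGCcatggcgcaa
Mcm3: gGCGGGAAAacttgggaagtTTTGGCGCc
Pold1: cgtatcttgtgGCGGGAAAagc

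Each gene has an expected count in the deposited table, and the library totals lay between 15463625 and 21396585. They were scaled by a median-of-ratios factor (0.935 to 1.04) and are given as normalized CPM, which is the count scaled to a common library size. Daxx lay between 71.9 and 82.7 CPM in Daxx-/- mESCs and between 206 and 207 CPM in the DAXX-rescued line. The H3.3 lines, in which another gene was knocked out, gave similar or lower Daxx values than Daxx-/- mESCs in all libraries but replicate 1 of the mutant-rescued line. The untransduced parent had 61.4 and 61.8, the WT-rescued line 59.2 and 62.4, and the mutant-rescued line 67.4 and 101.6 CPM. The Daxx count therefore does not check the Daxx knockout. Of the genes that encode H3.3, H3f3a was at 377 to 494 CPM in the Daxx lines and at 2.84 to 10.9 CPM in the H3.3 lines, while H3f3b was at 314 to 375 CPM in Daxx-/- mESCs and 84.4 to 117 CPM in the DAXX-rescued line. In H3.3 KO mESCs H3f3b was at 508 to 719 CPM, above the WT-rescued line (139 to 204 CPM) and the mutant-rescued line (323 to 389 CPM), so its count does not check the knockout. A count per gene holds reads of a targeted allele and of a transgene alike. All 8 embryonic stem cell markers were at 145 CPM or more in each library. Of the 6 fibroblast genes, Col1a2, Col3a1, Postn and Lum were under 1 CPM in each library, Col1a1 lay between 0.497 and 4.4 CPM and Thy1 between 3.26 and 35.6 CPM. The 2 libraries of a line differed by more than counting noise in all 5 lines. The p-values below measure the spread between these 2 libraries, pooled over the lines.

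Together the 50 members took between 0.774% and 0.976% of a library's counts. All were well above the detection limit, with a lowest count of 147 (Ccne2, replicate 2 of the WT-rescued line). The spread of the members is given beside that of all genes tested, many of which have far lower counts, and was not compared with genes of like level. The median SD within a line was 0.152 on the log2 scale over members and 0.240 over the 13201 genes tested, and the median range of the 5 line means was 0.452 against 0.798. In 3 members this range was over 1 on the log2 scale, compared with 35.9% of all genes tested. Between single libraries, the highest was under 2 times the lowest in 37 members and at least 2 times in 13, up to 3.25 times in Tyms, the enzyme that makes thymidylate.

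Levels were compared between members per kilobase of the GRCm38 coding transcript, since the counts are not corrected for length. Pcna, the sliding clamp that holds polymerases on DNA, had the highest mean level at 342 CPM per kb, with a range of 232 to 443 over the 10 libraries. The MCM2-7 subunits came next, with Mcm3 at 186, Mcm6 at 183, Mcm5 at 151, Mcm7 at 146, Mcm2 at 144 and Mcm4 at 115 CPM per kb. Rrm2, the small subunit of ribonucleotide reductase, stood among them at 133 CPM per kb. The lowest levels were those of Gins3 (6.77 CPM per kb), a GINS subunit, and Ccne2 (5.12 CPM per kb), one of the E cyclins, and the whole order spanned 66.7-fold. In 48 of the 49 neighbouring pairs in this order the ranges over the libraries overlapped, so neighbours are not separated by these data. The exception was the step from Npat, which activates histone gene transcription, at 12.2 CPM per kb (10.5 to 13.4) down to Gins3 (4.63 to 9.17).

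**Figure D1:**
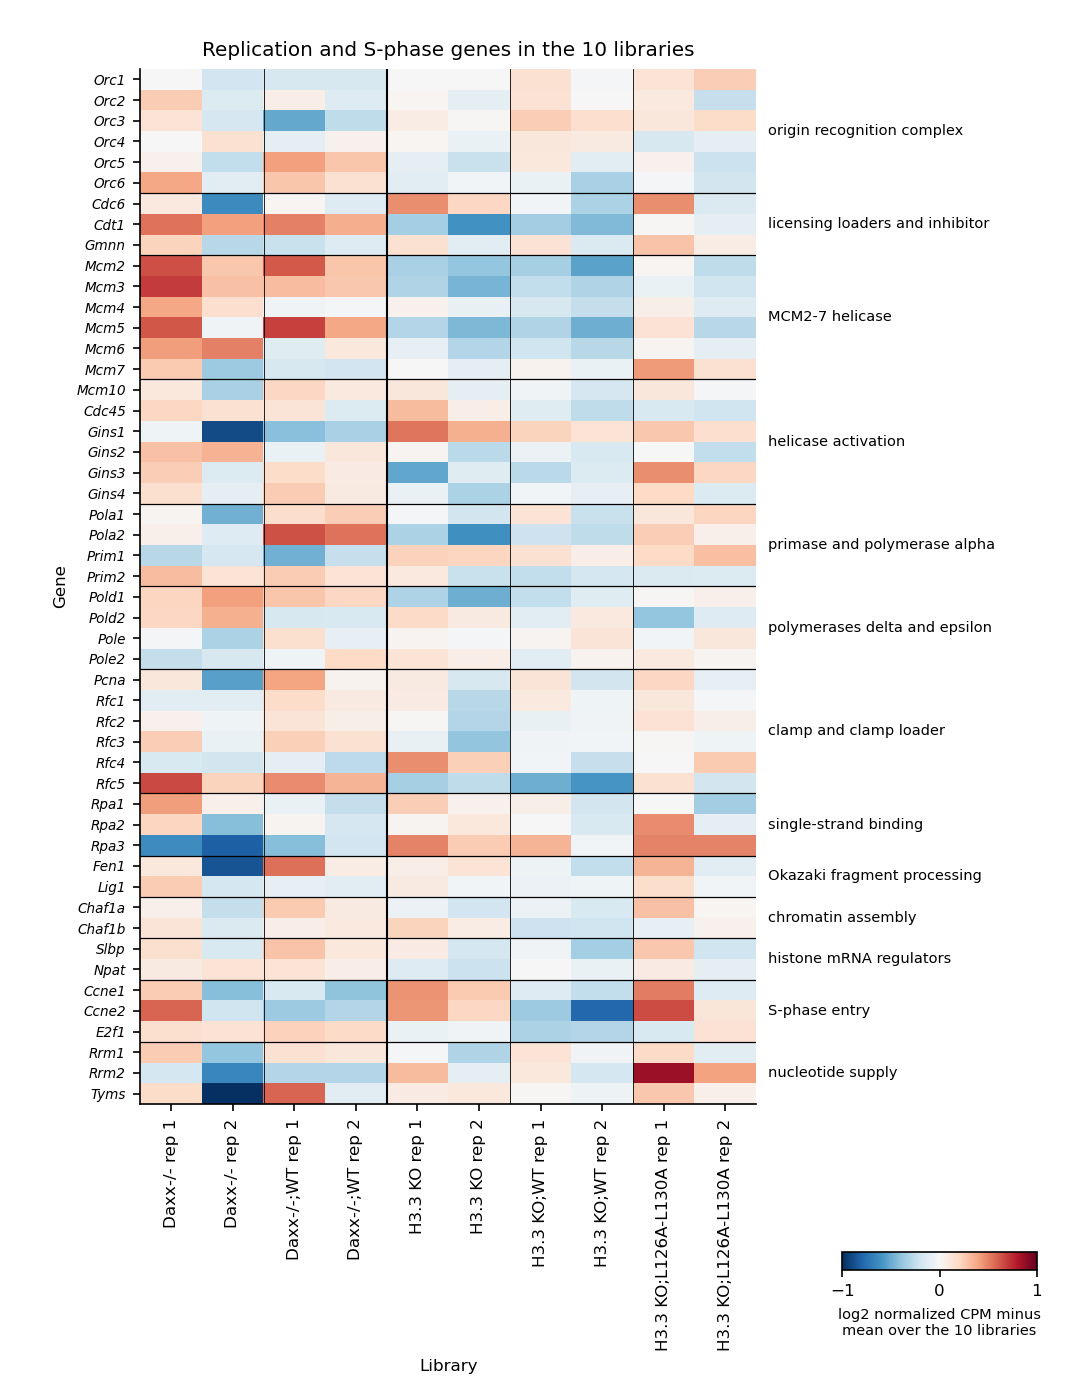
Each row is a member, grouped by role, and each column a library, with the colour giving the log2 normalized CPM minus the mean of that gene over the 10 libraries. The rows of Cdt1, Mcm2, Mcm3 and Rfc5 are red to the left of the thick line (the 4 libraries of the Daxx lines) and mostly blue to its right, and the rows of Rpa3, Gins1 and Prim1 show the reverse.

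In the main fit, the Daxx lines set against the H3.3 lines gave the only comparison of lines in which members were called. Alternative runs that called a few members in other comparisons are given further below. The comparison of these 2 sets of lines draws on all 10 libraries, and its median standard error over members was 0.105. In the rescues and in the mutant-rescued against the WT-rescued line it was 0.162 to 0.163. The median absolute log2 difference of members was of like size, 0.177 here and 0.137 to 0.18 in those comparisons. Most MCM2-7 subunits, the loader Cdt1, the polymerase subunits Pola2 and Pold1, the primase subunit Prim2 and the clamp loader subunit Rfc5 were lower in the H3.3 lines, and Rpa3, Gins1, Prim1 and Rrm2 were higher. At an adjusted p under 0.05, 11 members were lower (20.4% of all genes tested were) and 6 higher (19.3%), so 17 of the 50 passed, where 39.7% of all genes tested did. None of the 17 reached 2-fold, while 12.5% of all genes tested passed both criteria. In a test of any difference among the 5 lines 11 members passed (32.3% of all genes). The median log2 difference, H3.3 lines minus Daxx lines, was -0.0662 over members and -0.00636 over all genes tested. At adjusted p alone the share called between the sets of lines, 34% of members against 39.7%, does not set the members apart from the table as a whole. At 2-fold the members, with no call, lay below it, but many genes tested have far lower counts than the members. In the run limited to genes with a mean of 5 CPM or more, 8.58% of all genes passed at 2-fold. The members were not compared with genes of like level. Strain, parent line, knocked-out gene and transgenes all differ between the 2 sets of lines and cannot be told apart, and in bulk RNA fewer cells in S phase cannot be told apart from less RNA per cell.

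Tests in this section are from edgeR's quasi-likelihood fit of all 10 libraries, with p adjusted by Benjamini and Hochberg over all 13201 genes tested and with 95% intervals from the same fit. Library values are given in the order Daxx-/- replicates 1 and 2, DAXX-rescued 1 and 2, H3.3 KO 1 and 2, WT-rescued 1 and 2, and mutant-rescued 1 and 2. Leaving the fit aside, the libraries of the 2 sets did not overlap in 7 members that were lower in the H3.3 lines (11.1% of all genes tested) and 4 that were higher (11.5%). At an unadjusted p under 0.05 there were 20 members (49.2% of all genes).

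Of the MCM2-7 helicase, which unwinds the parental strands, 4 of the 6 subunits were called lower (20.4% of all genes tested were). No role was tested against the rest. Mcm2 was at 730.5, 563, 714 and 566 CPM in the Daxx lines and at 374, 357, 371, 323, 472 and 391 CPM in the H3.3 lines, where it was 1.70-fold lower (log2 fold change -0.76, standard error 0.11, adjusted p = 0.00116). Mcm3 was at 889, 673, 679.9 and 659 CPM against 446, 398, 463, 445, 524 and 477 CPM (log2 -0.66, standard error 0.10, adjusted p = 0.00108). In both genes every library of the Daxx lines lay above every library of the H3.3 lines.

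Mcm5 was at 753, 477, 787.5 and 642 CPM against 399, 359, 398.5, 349.9, 541 and 404.5 CPM (log2 -0.71, standard error 0.15, adjusted p = 0.00537). Here replicate 1 of the mutant-rescued line lay above replicate 2 of Daxx-/- mESCs, so the sets overlapped. Mcm6 was at 703, 745.5, 483 and 565 CPM against 497, 429, 457, 432, 534 and 491.5 CPM (log2 -0.38, standard error 0.09, adjusted p = 0.00838), with its lowest Daxx-line values in the DAXX-rescued line. Mcm4 (log2 -0.21, 95% interval -0.40 to -0.02, adjusted p = 0.0781) and Mcm7 (log2 0.18, interval -0.11 to 0.47, adjusted p = 0.302) were not called. Mcm7 was at 514, 332, 383 and 374 CPM against 429, 401, 438.5, 409, 575.5 and 475 CPM, with the 2 mutant-rescued libraries among its 3 highest.

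Relative to Mcm7, the other subunits of the ring therefore differed between the sets of lines. The helicase ratios given here all share Mcm7 as denominator and are not separate observations. Mcm7 was the only 1 of the 6 subunits with a fitted difference above 0, so each ratio also holds the difference of Mcm7. Ratios among the other subunits were not taken, so a change within the ring apart from Mcm7 is not shown. Exons of Ap4m1 and Cops6 on the opposite strand cover 10.8% and 2.16% of the Mcm7 transcript. Per kilobase, the Mcm2 to Mcm7 ratio within a library was 1.25 to 1.64 in the Daxx lines and 0.693 to 0.781 in the H3.3 lines, a measure that the scaling of libraries does not touch. The Mcm3 to Mcm7 ratio was 1.69 to 1.98 against 0.889 to 1.06, and the Mcm5 to Mcm7 ratio 1.26 to 1.80 against 0.746 to 0.824. The ranges of the 2 sets of lines were apart in each of these ratios. So were those of Mcm4 (0.863 to 1.15 against 0.613 to 0.815) and Mcm6 (1.28 to 2.29 against 0.945 to 1.18) to Mcm7. Of the other ratios taken, all of pairs picked by hand, those of Ccne2 to Ccne1 overlapped (0.0843 to 0.122 against 0.0673 to 0.116). Pold1 to Pold2 (0.487 to 0.659 against 0.325 to 0.638) and Pola2 to Pola1 (1.26 to 1.70 against 0.921 to 1.36) overlapped too. The share of all gene pairs that stand apart was not computed. Summed over the 6 helicase subunits, the level was 3214.5 to 4126 CPM in the Daxx lines and 2308 to 3074 CPM in the H3.3 lines.

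**Figure D2:**
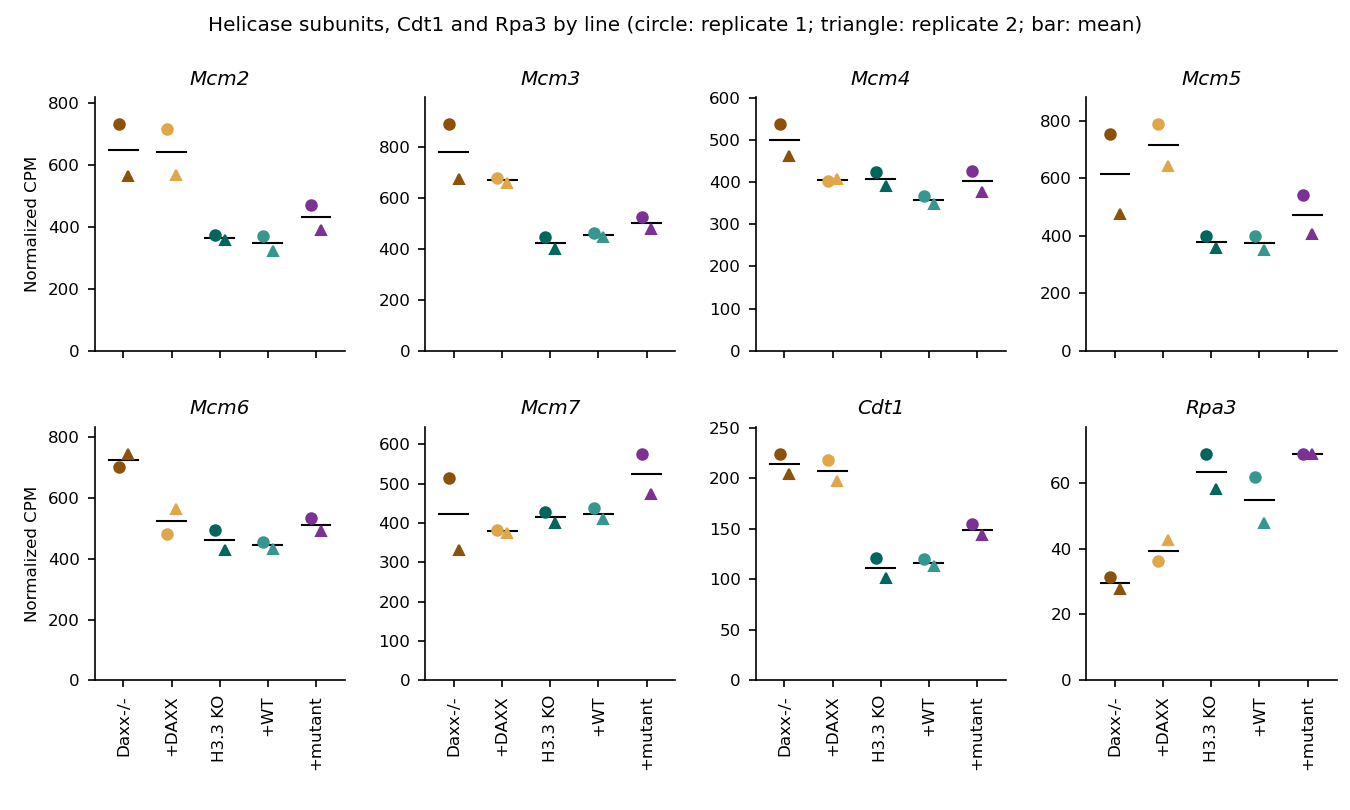
Normalized CPM (vertical axis, from 0) of the 6 helicase subunits, Cdt1 and Rpa3 in the 5 lines, with +DAXX, +WT and +mutant for the rescued lines. Points are libraries (circle replicate 1, triangle replicate 2) and bars are means. For Mcm2, Mcm3 and Cdt1 the 4 libraries on the left lie above the 6 on the right, for Rpa3 they lie below, and for Mcm7 they are mixed.

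Among the genes that load the helicase, Cdt1 had the smallest adjusted p of all members. It was at 224, 204, 218 and 197 CPM in the Daxx lines and at 121.5, 101, 120.5, 113, 155 and 144 CPM in the H3.3 lines, which is 1.69-fold lower (log2 -0.76, standard error 0.09, adjusted p = 0.000357). All Daxx-line libraries exceeded all H3.3-line libraries, and within the H3.3 lines the mutant-rescued pair was highest. Gmnn encodes geminin, which binds Cdt1 and blocks reloading, and it was not called (log2 0.16, interval -0.12 to 0.45). Per kilobase the Cdt1 to Gmnn ratio was 1.03 to 1.36 in the Daxx lines and 0.583 to 0.730 in the H3.3 lines. Cdc6, the ATPase that works with Cdt1, lay between 41.8 and 89.9 CPM with the sets overlapping. Of the origin recognition complex, which marks origins, only Orc3 was called among the 6 subunits (39.7% of all genes tested were called). It was at 115, 93.0, 73.2 and 87.9 CPM against 110.1, 106, 124, 117.5, 113 and 118.5 CPM (log2 0.33, standard error 0.10, adjusted p = 0.0269), and replicate 1 of Daxx-/- mESCs lay within the range of the H3.3 lines.

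The factors that start the helicase went in both directions. Gins1, a GINS subunit, was at 41.0, 22.8, 31.6 and 33.7 CPM against 61.1, 54.0, 49.3, 46.5, 50.9 and 47.5 CPM, higher in each H3.3-line library than in any Daxx-line library (log2 0.67, standard error 0.16, adjusted p = 0.00913). Gins2, another subunit of the same 4-part complex, was at 69.3, 71.8, 54.0 and 61.1 CPM against 57.4, 46.8, 54.2, 50.9, 56.6 and 47.7 CPM (log2 -0.29, standard error 0.10, adjusted p = 0.0492). The annotated transcript of Gins2 shares 70.7% of its bases with exons of Gse1 on the opposite strand, and the strand setting of the counting is not given in the sources used here. Gins3, Gins4, Cdc45, the partner of MCM and GINS in the active helicase, and Mcm10, which helps to activate it, were not called.

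Of polymerase alpha and primase, which lay down primers, 3 of 4 subunits were called (39.7% of all genes tested were). Prim1, the catalytic primase subunit, was at 72.7, 78.4, 63.0 and 75.1 CPM against 103, 102, 98.0, 92.2, 101 and 108 CPM (log2 0.48, standard error 0.09, adjusted p = 0.00300). Its partner Prim2 was at 90.9, 80.9, 87.5 and 81.0 CPM against 78.7, 63.2, 62.0, 65.0, 66.5 and 66.9 CPM (log2 -0.34, standard error 0.09, adjusted p = 0.0178). The sets did not overlap in either gene, and the Prim1 to Prim2 ratio per kilobase was 0.898 to 1.21 in the Daxx lines and 1.63 to 2.02 in the H3.3 lines. Pola2, the regulatory subunit of polymerase alpha, was at 86.0, 76.1, 129 and 121 CPM against 66.7, 54.3, 72.1, 69.7, 98.5 and 86.4 CPM (log2 -0.46, standard error 0.10, adjusted p = 0.0054). Its highest levels in either set were those of the DAXX-rescued and mutant-rescued lines.

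Pold1, the catalytic subunit of the lagging-strand polymerase delta, was at 178, 204, 186 and 177 CPM against 124, 109.5, 129.6, 141, 155 and 159 CPM, with no overlap (log2 -0.46, standard error 0.08, adjusted p = 0.00300). Its partner Pold2 and the polymerase epsilon genes Pole and Pole2 were not called. Rfc5, a subunit of the clamp loader, was at 289.8, 213, 254 and 231 CPM against 145.5, 153, 131, 122, 203.5 and 161 CPM, again with no overlap (log2 -0.71, standard error 0.11, adjusted p = 0.00152). Rfc4 of the same complex was at 52.9, 52.0, 55.2 and 49.1 CPM against 81.2, 69.4, 57.8, 50.1, 58.8 and 70.5 CPM, and its sets overlapped (log2 0.29, standard error 0.10, adjusted p = 0.0469). Exons of Wsb2 and Eif4a2 on the opposite strand cover 17.8% and 13.4% of the Rfc5 and Rfc4 transcripts. Pcna itself was not called and lay at 352 to 672 CPM in the Daxx lines and at 449.8 to 592 CPM in the H3.3 lines (log2 -0.02, interval -0.36 to 0.33).

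Rpa3, the smallest subunit of the RPA complex that coats single strands, had the largest difference of all members. It was at 31.5, 27.6, 36.2 and 42.6 CPM in the Daxx lines and at 68.7, 58.0, 61.7, 47.8, 68.7 and 68.6 CPM in the H3.3 lines, 1.82-fold higher with no overlap (log2 0.86, standard error 0.12, adjusted p = 0.000655). Rpa1 and Rpa2, the other subunits, were not called, and the Rpa3 to Rpa1 ratio per kilobase was 0.555 to 1.18 against 1.28 to 2.06. Rrm2, which limits the supply of deoxynucleotides, was at 246.9, 177, 228 and 228 CPM against 347, 261, 299.8, 247.2, 504 and 369 CPM, with the lowest H3.3-line library just above the highest Daxx-line library (log2 0.59, standard error 0.15, adjusted p = 0.0117). Its partner Rrm1 and Tyms were not called. E2f1, an activating E2F factor, was at 72.5, 72.0, 76.1 and 74.2 CPM against 62.0, 63.6, 52.1, 53.0, 58.4 and 72.0 CPM (log2 -0.30, standard error 0.09, adjusted p = 0.0252), and its 2 sets met at 72.0 CPM without crossing. The calls of Orc3, Gins2, Prim2, Rfc4 and E2f1 were each lost when 1 library or another was left out, and those of the other 12 members were kept.

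No gene of Okazaki fragment processing (Fen1, Lig1), CAF-1 (Chaf1a, Chaf1b), histone mRNA regulation (Slbp, Npat) or the E cyclins was called between the 2 sets of lines. In these 8 genes the fitted log2 differences lay between -0.18 (Npat) and 0.29 (Ccne1), and 39.7% of all genes tested were called. Exons of Gm10143 and Ubxn6 on the opposite strand cover 80.4% of the Fen1 and 48.6% of the Chaf1a transcript. Over all 50 members the 95% interval of the difference lay inside 2-fold in both directions for 46, the other 4 being Mcm2, Mcm5, Gins1 and Rpa3. The median log2 difference was -0.07 in the 14 members with an E2F element and -0.07 in the 27 members with a window and no element, and Orc3 was higher in the H3.3 lines while Cdt1, Mcm3, Mcm5, Mcm6 and Pold1, also with an element, were lower. Of 7 marker lists, the summed levels of 3 stood apart between the sets of lines and those of 4 overlapped. The 8 stem cell markers summed to 5061 to 6064.5 CPM in the Daxx lines and 6195 to 7816 CPM in the H3.3 lines, the 6 fibroblast genes to 12.4 to 40.4 against 4.41 to 11.1 CPM (of which Thy1 alone made 11.7 to 35.6 and 3.26 to 7.65 CPM), and the 3 neural genes to 39.6 to 44.9 against 47.5 to 82.8 CPM. The overlapping lists were primitive endoderm (4.48 to 16.5 against 5.88 to 11.7 CPM), mesoderm (12.2 to 24.3 against 7.88 to 19.6), trophoblast (0.696 to 11.5 against 1.09 to 8.63) and two-cell-like genes (8.20 to 58.0 against 3.67 to 166.5). Their part in the member differences was not tested.

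**Figure D3:**
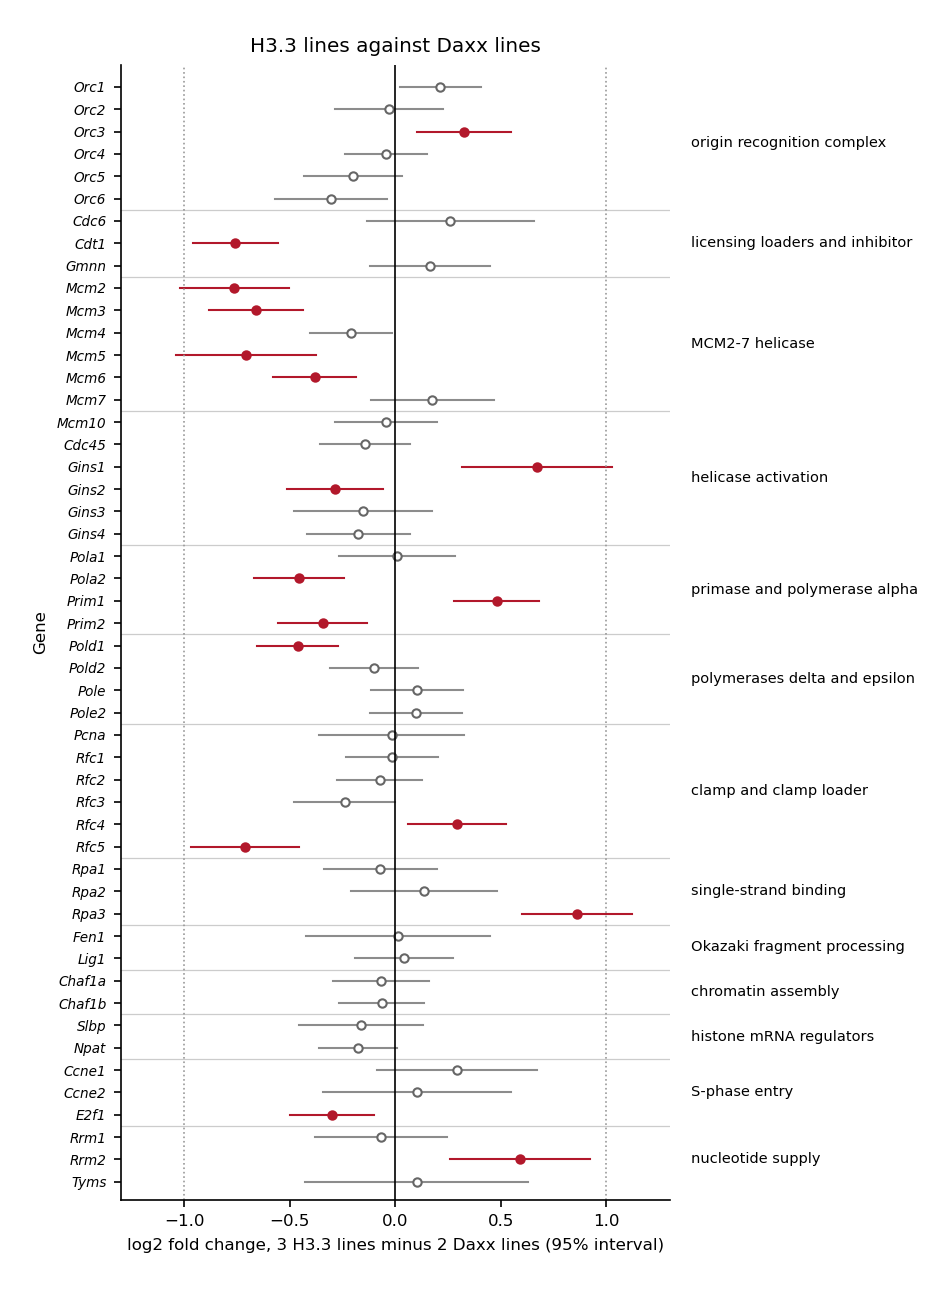
Fitted log2 fold change of each member, H3.3 lines minus Daxx lines, with its 95% interval, grouped by role. Filled red points have an adjusted p under 0.05, and dotted lines mark 2-fold in either direction. No point reaches a dotted line, and subunits of 1 complex (Prim1 and Prim2, Rfc4 and Rfc5, Gins1 and Gins2) lie on opposite sides of 0.

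Rescue of Daxx-/- mESCs with DAXX compares cells of the same parent line with and without the transgene. The rescued line also went through lentiviral transduction and puromycin selection. No line with an empty vector was among the libraries, so these steps cannot be told apart from DAXX. The same limit holds for each H3.3 rescue against H3.3 KO mESCs. No member was called, by the 2-fold rule (1.08% of all genes tested) or by adjusted p alone (1.34%). The members were spread evenly about 0, with 25 above and 25 below, a median log2 fold change of 0.0172 (-0.0113 over all genes) and extremes of -0.57 (Ccne2) and 0.63 (Fen1). The 95% interval lay inside 2-fold in both directions for 47 members, all but Fen1, Ccne2 and Tyms. The 2 pairs of libraries did not overlap in 9 members that were higher with DAXX (22.2% of all genes) and 8 that were lower (24.0%), and 7 members had an unadjusted p under 0.05 (21.6%).

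Pola2 had the smallest p of this comparison. It was at 86.0 and 76.1 CPM without and 129 and 121 CPM with DAXX, 1.55-fold higher (log2 0.63, standard error 0.15, adjusted p = 0.0707). Mcm6 went the other way, from 703 and 745.5 to 483 and 565 CPM (log2 -0.47, standard error 0.14, adjusted p = 0.109), as did Pold2, the accessory subunit of polymerase delta, from 174 and 193 to 134.6 and 135.5 CPM (log2 -0.44, standard error 0.14, adjusted p = 0.132). Neither difference passed the test. Orc5, an origin recognition subunit, was at 104 and 85.1 against 134 and 123 CPM (log2 0.44, adjusted p = 0.162). The other members with the largest differences and no overlap were Pola1 (log2 0.42), Rpa3 (0.41), Rpa1 (-0.40), Orc3 (-0.37), Mcm4 (-0.30) and Ccne2 (-0.57), with adjusted p between 0.202 and 0.311. The 2 Daxx-/- libraries were far apart in some members, with Tyms at 141 CPM in replicate 1 and 57.2 CPM in replicate 2. Without replicate 1 of Daxx-/- mESCs 4 members passed at adjusted p alone, Pola1, Pola2, Fen1 and Tyms, the last pair also at 2-fold, while 14.4% of all genes passed at adjusted p alone and 8.41% also at 2-fold.

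With the WT transgene, too, no member was called against H3.3 KO mESCs, where 0.205% of all genes passed by both rules. Of the members 22 were above and 28 below 0, and the median was -0.0662 (0.0169 over all genes). The E cyclins had the largest fitted differences, and exons of Ints8 on the opposite strand cover 20.3% of the Ccne2 transcript. Ccne2 was at 19.9 and 17.0 CPM in H3.3 KO mESCs and at 11.4 and 8.52 CPM in the WT-rescued line (log2 -0.89, standard error 0.31, adjusted p = 0.273), and Ccne1, the other E cyclin, at 137 and 119.8 against 91.7 and 84.3 CPM (log2 -0.54, standard error 0.26, adjusted p = 0.413). Cdc6 was at 89.8 and 75.3 against 63.7 and 52.2 CPM (log2 -0.51, adjusted p = 0.471). The libraries of these 3 genes did not overlap, and none passed the test.

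The remaining members with the largest differences and no overlap were all lower with WT H3.3. They were Rfc4 (log2 -0.48, the smallest adjusted p at 0.254), Cdc45 (-0.39), Chaf1b (-0.35), Gins1 (-0.26), E2f1 (-0.26), Fen1 (-0.25) and Rfc5 (-0.24). In all, 16 members were lower without overlap (26.7% of all genes) and 6 higher (29.3%), and 4 had an unadjusted p under 0.05 (13.3%). The highest member was Pola2 (log2 0.23), and the interval lay inside 2-fold for 47 members, all but Cdc6, Ccne1 and Ccne2. The DAXX and WT H3.3 rescues share no library, so their difference was tested directly. No member was called (0.0455% of all genes) and 2 had an unadjusted p under 0.05 (13.8%), Rpa3 (log2 0.62, interval 0.06 to 1.18, adjusted p = 0.319) and Orc3 (log2 -0.53, interval -1.01 to -0.05, adjusted p = 0.324).

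Rescue with the mutant H3.3 also called no member, by the 2-fold rule (0.795% of all genes) or by adjusted p alone (0.970%). Here 36 members were above and 14 below 0, with a median of 0.0999 (0.0356 over all genes), and 17 were higher without overlap (26.2% of all genes) and 6 lower (23.8%). Pola2 was at 66.7 and 54.3 CPM in H3.3 KO mESCs and at 98.5 and 86.4 CPM in the mutant-rescued line (log2 0.61, standard error 0.15, adjusted p = 0.0902). Gins3 was at 11.7 and 15.4 against 23.1 and 19.3 CPM (log2 0.65, standard error 0.23, adjusted p = 0.199), and Rrm2 at 347 and 261 against 504 and 369 CPM (log2 0.52, standard error 0.22, adjusted p = 0.280). The mutant-rescued libraries were the higher pair in each of these genes, and none passed the test.

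Pold1 (log2 0.43, adjusted p = 0.161), Cdt1 (0.42, adjusted p = 0.182), Mcm7 (0.34) and Mcm5 (0.32) were also higher without overlap, and Pold2 (-0.39), Cdc45 (-0.37) and Rpa1 (-0.31) lower, and 7 members had an unadjusted p under 0.05 (16.8% of all genes). The interval lay inside 2-fold for 48 members, all but Gins3 and Rrm2. The WT and mutant rescues share the H3.3 KO libraries, so their fold changes are not independent. For the 6 helicase subunits the median log2 fold change was -0.04 with WT and 0.24 with mutant H3.3, and for the 3 genes of S-phase entry it was -0.54 and 0.05. Not all roles went this way. The median was 0.117 with WT and 0.0253 with mutant H3.3 for the 6 origin recognition subunits. For the 4 genes of polymerases delta and epsilon the median went the same way as in the helicase but by far less, at -0.0329 and 0.0002.

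Set directly against the WT-rescued line, the mutant-rescued line had higher fitted levels in 41 of the 50 members, with a median log2 difference of 0.161 (0.0077 over all genes). The share of all genes above 0 is not given for this or the other comparisons. With a library left out the median of members lay between 0.0701 and 0.214. Between the 2 replicates of the mutant-rescued line alone the members differed by a median log2 of 0.179. No member was called, by the 2-fold rule (0.500% of all genes) or by adjusted p alone (0.515%). Both mutant-rescued libraries lay above both WT-rescued libraries in 24 members (22.3% of all genes) and below them in 2, Orc4 and Pold2 (22.9%). The 24 included all 6 helicase subunits, Cdt1, Mcm10 and 3 of 4 subunits of polymerase alpha and primase. At an unadjusted p under 0.05 there were 7 members (12.4% of all genes), all higher with the mutant: Cdt1, Gins3, Pola2, Rfc5, Ccne2, E2f1 and Rrm2. Markers of the two-cell-like state, a rare state of mESC cultures, were lower in each mutant-rescued library than in either WT-rescued library. The 4 in the table (Zscan4c, Zscan4d, Zscan4f and Dub1, the first 3 near-identical copies whose reads may be split uncertainly) summed to 116 to 166.5 CPM in the WT-rescued and 3.67 to 30.5 CPM in the mutant-rescued line, and to 122 to 157 CPM in H3.3 KO mESCs. Dub1 was called lower at 2-fold in the mutant-rescued line (20.7 and 31.4 against 2.04 and 5.03 CPM, log2 -2.87, adjusted p = 0.0375), and the Zscan4 genes were not (adjusted p between 0.268 and 0.367). Their part in the member differences was not tested.

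Ccne2 was at 11.4 and 8.52 CPM with WT and 23.1 and 16.0 CPM with mutant H3.3 (log2 0.97, standard error 0.31, adjusted p = 0.236). Rrm2 was at 299.8 and 247 against 504 and 369 CPM (log2 0.67, standard error 0.22, adjusted p = 0.253), and Rfc5 at 131 and 122 against 203.5 and 161 CPM (log2 0.53, standard error 0.18, adjusted p = 0.262). In none of these did the pairs overlap. Gins3 (log2 0.54), Pola2 (0.38), Cdt1 (0.36), Mcm5 (0.34), Rpa3 (0.33), Mcm2 (0.31) and E2f1 (0.31) completed the 10 largest, with adjusted p between 0.340 and 0.654. The interval lay inside 2-fold for 47 members, all but Gins3, Ccne2 and Rrm2. In 12 members both mutant-rescued libraries exceeded all 4 other H3.3-line libraries (11.8% of all genes did), namely Cdt1, Mcm2, Mcm3, Mcm5, Mcm7, Gins3, Pola2, Pold1, Rfc2, Rfc5, Chaf1a and Rrm2.

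**Figure D4:**
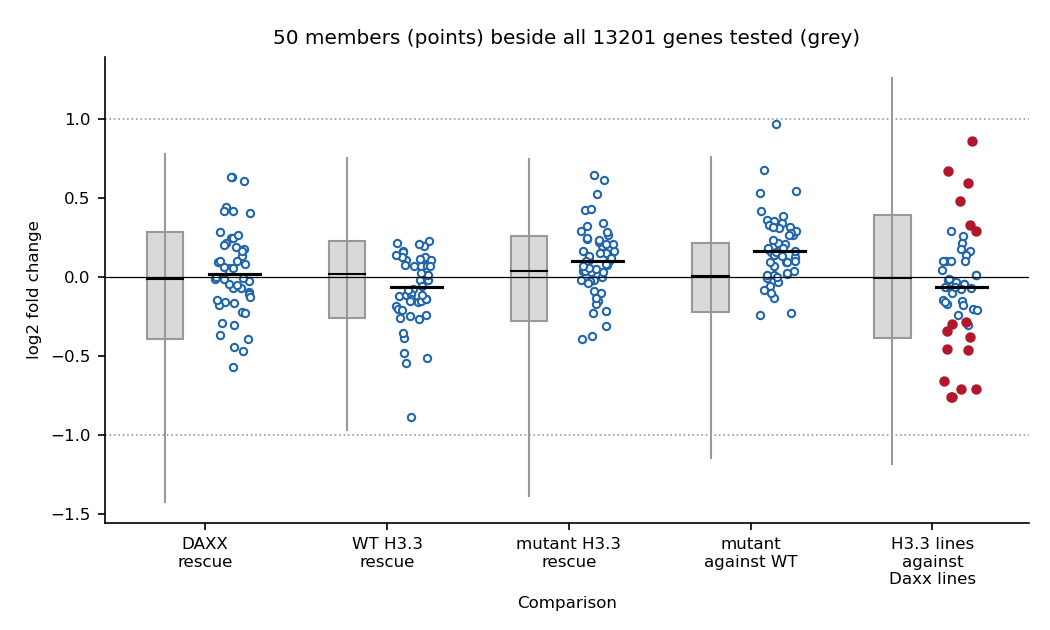
Fitted log2 fold change (vertical axis) of the 50 members (points, with their median as a bar) beside all genes tested (grey box from the 25th to the 75th percentile, line from the 5th to the 95th) in the 5 comparisons. Filled red points have an adjusted p under 0.05 and occur only in the comparison of the 2 sets of lines, dotted lines mark 2-fold, and in the mutant against WT comparison the member median stands at 0.161.

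Replicates of a line differed in most of these genes in 1 direction. Library 1 was above library 2 in 42 of 50 members in Daxx-/- mESCs, 35 in the DAXX-rescued, 43 in H3.3 KO, 39 in the WT-rescued and 38 in the mutant-rescued line, while over all genes tested the share was 49.8% to 52.5%. The median log2 difference of members, replicate 1 minus replicate 2, was 0.306, 0.0882, 0.164, 0.0963 and 0.179 in the same order. In 20 members replicate 1 was higher in all 5 lines, which held for 14.2% of all genes. The largest single difference was that of Tyms in Daxx-/- mESCs (log2 1.29), and Rrm2 led in H3.3 KO (0.41), Ccne2 in the WT-rescued (0.41) and Ccne1 in the mutant-rescued line (0.64). Summed over the helicase, replicate 1 exceeded replicate 2 in all 5 lines, by 4126 to 3253 CPM in Daxx-/- mESCs and by 2495.5 to 2308 CPM in the WT-rescued line. Nothing in the labels says that a replicate number marks a shared culture or day.

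**Figure D5:**
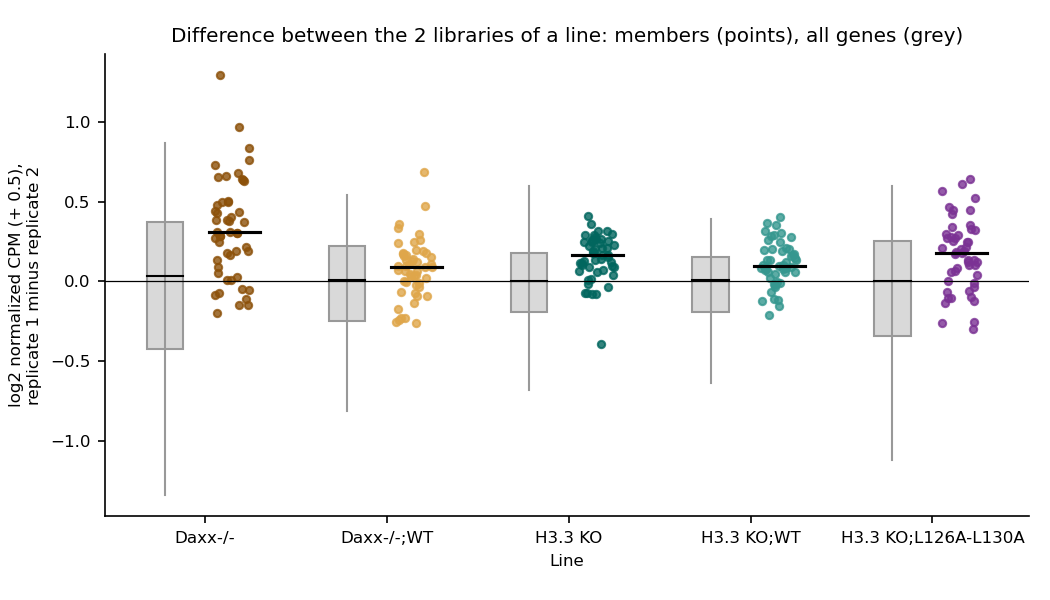
Difference between the 2 libraries of each line, as log2 of normalized CPM plus 0.5, replicate 1 minus replicate 2 (vertical axis), for the 50 members (points, bar at the median) and all genes tested (grey box from the 25th to the 75th percentile, line from the 5th to the 95th). The member medians lie between 0.0882 and 0.306, and the box of all genes straddles 0 in each line.

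Other genes of replication and the cell cycle, 105 in 7 lists, were measured beside the members. None was called in the 3 rescues or in the mutant against WT comparison, and 53 were called between the 2 sets of lines at an adjusted p under 0.05, 28 higher and 25 lower in the H3.3 lines, 8 of them also at 2-fold. These are 50.5% called, 26.7% higher, 23.8% lower and 7.62% at 2-fold, beside 39.7%, 19.3%, 20.4% and 12.5% of all genes tested, and no list was tested against the rest. Of 12 genes of nucleotide supply 5 were lower and none higher. These were Tk1, Dtymk, Nme1, Cad and Ung, led by Cad, which starts pyrimidine synthesis (622, 671, 772 and 621 against 349, 301, 401, 478.5, 387 and 379 CPM, log2 -0.82, adjusted p = 0.000405). Of 20 genes of G2 and M phase 9 were higher and 1 lower. Higher were Ccnb2, Cdk1, Bub1, Cenpe, Cenpf, Mki67, Tpx2, Nusap1 and Ube2c, between log2 0.35 (Ube2c) and 0.88 (Cenpe), and lower was Ccnf (-0.63).

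Of 11 accessory factors of licensing and the active helicase, Dbf4, Mcm8 and Mcm9 were higher (log2 0.41 to 0.81) and Cdc7, Topbp1, Recql4, Donson and Mcmbp lower (-0.67 to -0.36). Dbf4 and Cdc7 form the kinase that fires origins. Of 14 accessory factors of the fork, Pold3, Chtf18, Rnaseh2b, Top1 and Top2a were higher (0.37 to 1.32) and Rnaseh2a and Dna2 lower (-0.64 and -0.40), so that the catalytic and an accessory subunit of RNase H2 stood on opposite sides. Of 12 genes of fork protection and the checkpoint, Chek1, the checkpoint kinase (log2 1.02), and Etaa1 (0.87) were higher and Tipin, Atrip, Rad1 and Rad9 lower (-0.68 to -0.35). Of 10 histone chaperone and maintenance genes, Nasp, Dnmt1 and Supt16h were higher (0.42 to 0.68) and Tonsl lower (-0.46).

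Of 26 regulators of S-phase entry, 6 were higher and 7 lower, and this list held 6 of the 8 calls at 2-fold. Cdkn1b, an inhibitor of cyclin E and Cdk2, was higher (17.0 to 28.4 CPM in the Daxx lines, 48.8 to 86.2 CPM in the H3.3 lines, log2 1.50), as were the cyclin Ccnd3 (1.09), Rb1, which restrains E2F (1.20), Ccna2 (0.60), E2f8 (0.54) and Fbxo5 (0.52). Cdkn1a, another inhibitor of cyclin-dependent kinases, was lower (249, 345, 102 and 151 CPM against 67.0 to 96.3 CPM, log2 -1.28), as were Ccnd1 (102 to 235 CPM against 21.5 to 82.8 CPM, log2 -2.18), its kinase Cdk6 (-1.97), E2f4 (-0.95), Rbl2 (-0.89), Tfdp1 (-0.74) and Cdc25a (-0.31). The adjusted p of these 13 lay between 0.000160 and 0.0404. The other 2 calls at 2-fold were Rnaseh2b and Chek1.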

How the data were processed

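The 10 polyA RNA-Seq libraries (5 mESC lines with 2 biological replicates) were grouped by the line in their labels. Per the labels and the study's methods, the authors aligned reads with Bowtie to mm9 and estimated expression with RSEM (versions and annotation are not given in the sources used here), and the deposited values are RSEM expected counts, although the table is named TPM. Expected counts were rounded and fitted with edgeR 4.0.16 (R 4.3.3) using median-of-ratios factors. A gene entered with 1 CPM or more in 2 or more libraries (13201 genes), and the fit held all 10 libraries in 1 quasi-likelihood model with common dispersion 0.0521 and 5 residual degrees of freedom. Calls used an adjusted p by Benjamini-Hochberg under 0.05 with a fold of 2 or more, or adjusted p alone. The study also asked for a fold of 2 or more and an FDR under 0.05, but from the posterior probability of EBSeq. EBSeq was not run, so the calls are not those of the study. The standard error is the log2 fold change over the square root of F. The fit was tested on simulated data. With 2 libraries a line, intervals and p-values rest on pooled spread, and counting error is small, the lowest member count being 147.

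The members, lists, tests and alternatives were chosen with earlier results of these data known. Members named with statistics are all those called and, in each comparison, the 10 with the largest fold change among those whose libraries did not overlap. Transcript lengths, overlaps and positions are from GENCODE M21 (GRCm38) and were matched by symbol, a different build from that of the counts, and promoters from RefSeq (GRCm38.p6). Alternatives were TMM factors, library size alone, other filters (none, or a mean of 5 CPM), a replicate block, DESeq2 1.42.0, limma 3.58.1 on log2 CPM with a pseudocount of 1 or 0.1, each comparison fitted alone, and each library left out. Python 3.11.15 with pandas 2.3.3 and matplotlib 3.10.9 was used for the rest.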

Additional observations from a re-analysis of the deposited data

How the results depend on the processing

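With 2 libraries a line the spread was pooled over all lines, and reads shared between overlapping genes on opposite strands were not separable. No called member changed direction in any alternative run. The count of members called at 2-fold stayed 0 in every comparison except DAXX rescue, where it lay between 0 and 2 with a library left out, the 2 (Fen1 and Tyms) being without replicate 1 of Daxx-/- mESCs, where 8.41% of all genes passed. For the test of any difference among the lines, 11 members (32.3% of all genes) became 24 (51.2%) with the replicate block and 19 (47.0%) with DESeq2. This count also moved in both directions with single libraries left out, as did the share of all genes. Between the sets of lines 0 members passed at 2-fold and 17 at adjusted p alone, and the 17 (39.7% of all genes) became 23 (49.6%) with the replicate block and between 12 and 20 (28.6% to 42.6%) with a library left out. Leaving out a library moved the members' median log2 fold change between -0.118 and 0.189 for DAXX rescue (0.189 without replicate 1 of Daxx-/- mESCs) and between -0.120 and 0.029 for WT H3.3 rescue (0.029 without replicate 1 of H3.3 KO), so both changed sign, as did that between the sets of lines (-0.0662, and 0.00508 without replicate 1 of Daxx-/- mESCs). The cause of these sign changes was not tested. The median stayed above 0 for mutant H3.3 rescue (0.0295 to 0.199) and for mutant against WT (0.0701 to 0.214). Gins2 lost its call with TMM factors (adjusted p = 0.0588), library size alone (0.0853) and no filter (0.0655), E2f1 with library size alone (0.0769), and Rfc4 with no filter (0.0620).

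Replicate numbers were not stated to pair samples, and the correlation of same-numbered libraries' deviations was over 0.1 in 7 of 10 pairs of lines (-0.0519 to 0.562), not in all. With the replicate block, members called at adjusted p alone were 4 in DAXX rescue (Orc5, Mcm6, Pola2 and Rpa1, with 10.7% of all genes), 2 in mutant H3.3 rescue (Cdt1 and Pola2, 5.73%) and 1 in mutant against WT (Rrm2, 2.48%). DESeq2 called Mcm6 and Pola2 in DAXX rescue (8.78% of all genes) and Pola2 in mutant rescue (5.79%), library size alone Pola2 in DAXX rescue (adjusted p = 0.0490, 1.54%), and WT H3.3 rescue fitted alone Ccne1 and Ccne2 (6.02%).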

Other observations

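In the 7 lists that hold no member no gene was called between the WT-rescued and mutant-rescued lines, and their medians are given with no test. The median log2 difference, mutant minus WT, was 0.271 over 10 histone chaperone and maintenance genes, 0.256 over 26 regulators of S-phase entry and 0.135 over 14 accessory factors of the fork, against 0.161 over the members and 0.0077 over all genes tested. It was 0.0797 over 12 genes of fork protection and the checkpoint, 0.0523 over 12 of nucleotide supply, 0.00936 over 11 accessory factors of licensing and -0.0535 over 20 genes of G2 and M phase.

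The difference between replicates was also seen outside the members. Library 1 was above library 2 in 18 of 20 genes of G2 and M phase in Daxx-/- mESCs and in 15 of 20 in each of the DAXX-rescued, WT-rescued and mutant-rescued lines. In H3.3 KO mESCs it was above in 8 of these 20, while it was above in 43 of the 50 members. All 10 histone chaperone and maintenance genes were higher in replicate 1 of the WT-rescued line. These are values of single pairs of libraries, and no test was made.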
